A study of Triticum aestivum with 20 samples.

Results

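In anthers of the wheat line BS366, 835 of 28894 probe sets were higher in the cold in both photoperiods at all 5 stages measured. Of these, 195 were kept after limits on level, size of the difference and identifier. BS366 is a thermosensitive genic male-sterile line, whose pollen fails when plants are kept cool while the pollen forms. Condition A was 10 °C with 12 h of light and condition B was 10 °C with 14 h of light, and these are called cold. Conditions E and F, at 20 °C with 12 h and 14 h of light, were the controls. Plants of this single line stayed under their condition for 5 days. Anthers were collected by length, at 1.5, 2.0, 2.2, 2.5 and 3.0 mm, and each condition and stage gave 1 Affymetrix Wheat Genome array, 20 in all. No genotype other than BS366 entered the comparison, so nothing here separates a response of BS366 from one of wheat in general.

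The 195 probe sets, called members below, were chosen by their measured values, on the log2 scale that the authors deposited. Both A minus E and B minus F had to be above 0 at every stage, which makes 10 differences. The mean of the 8 differences of stages 1.5 to 2.5 had to be at least 0.6, and at least 4 cold arrays had to be at 8 or more. All 10 differences were above 0 in 835 probe sets, of which 564 also reached the level in the cold arrays, and 204 of these reached the mean of 0.6. Of these, 9 were left out by identifier, which belongs to histone H2A or H2B clusters. Every cold against control value of the members is therefore a description of what was chosen, without a test. The rule was also run with its signs turned, the level limit on the control arrays and nothing left out by identifier. It found 236 probe sets that were lower in the cold at every stage, against the 204 that were higher.

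Anther cells pass through meiosis and then form microspores, which depend on the tapetum, the innermost layer of the anther wall, for nutrients and wall material. Anther length is used as a measure of how far this has gone. In wheat and other cereals, cool spells around meiosis and the young microspore stage are known to disturb these steps. The values are those of whole anthers, in which more RNA per cell and more cells of a type cannot be told apart.

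The 4 conditions gave array medians between 6.14 and 6.46, and all arrays shared the lowest value of 2.28. In each temperature and stage the 2 arrays differed in photoperiod, and the labels do not say whether they came from separately grown plants, so any spread between them holds both. The labelled tissue was checked against raftin1a and raftin1b, tapetum genes of wheat, whose 4 probe sets were well above the floor in every array. Among the named markers, all 4 raftin probe sets were lower in the cold over stages 1.5 to 2.5 (adjusted p under 0.05 in limma), against 16.3% of the 13805 probe sets tested that were lower and 16.7% that were higher. All 8 green-tissue probe sets tested, of rbcL, PRK, FBP and OEE2, were also lower in the cold.

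**Figure D1:**
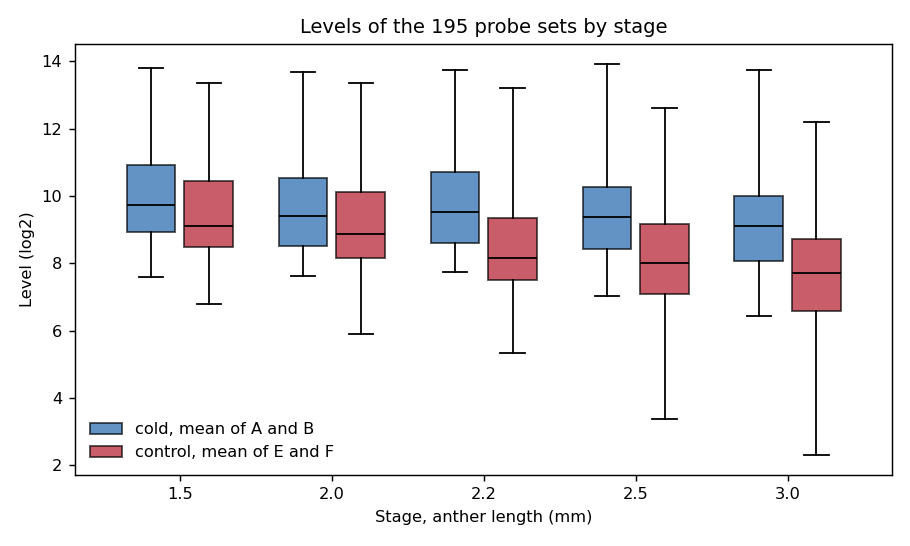
Level (log2) of the 195 members at each stage, as the mean of A and B (cold, blue) and of E and F (control, red). Boxes span the quartiles over members with the median as a line, and whiskers reach the lowest and highest member. The median control level went from 9.12 at 1.5 mm to 7.72 at 3.0 mm and the median cold level from 9.73 to 9.10.

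The members parted mainly after 2.0 mm. At 1.5 mm their median level was 9.73 in the cold and 9.12 in the control, and at 2.0 mm it was 9.42 and 8.87. At 2.2 mm the cold median was 9.52 and the control median 8.15, and at 3.0 mm they were 9.10 and 7.72. Over all probe sets tested, the median stayed between 8.32 and 8.46 in every one of these groups. The control mean was lower at 2.2 than at 2.0 mm in 188 members, with a median change of -0.67, while the cold mean was lower in 68 and its median change was 0.09. Over the whole span from 1.5 to 3.0 mm the median change was -1.49 in the control and -0.81 in the cold. The control mean was at least 2 lower on the log2 scale at 3.0 mm in 69 members and the cold mean in 8.

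The sign of the difference was the same at every stage by choice, but its size was not. Unless a pair is named, a stage difference is the mean of A minus E and B minus F. The median cold minus control difference was 0.50 at 1.5 mm, 0.41 at 2.0 mm, 1.12 at 2.2 mm, 1.25 at 2.5 mm and 1.20 at 3.0 mm. Its smallest value lay at 1.5 mm in 70 members and at 2.0 mm in 104. Its largest value lay at 2.2, 2.5 and 3.0 mm in 49, 69 and 73 members, at 1.5 mm in 3 and at 2.0 mm in 1. A difference of at least 2-fold was present in 14 members at 1.5 mm, where 0.5% of all probe sets tested were that much higher, and in 11 at 2.0 mm, against 0.659%. The corresponding numbers were 121 at 2.2 mm against 6.45%, 137 at 2.5 mm against 7.09%, and 117 at 3.0 mm against 14.9%. Since the rule used these differences, the counts say how the members are spread over the stages and no more. The members were picked as candidates for a response independent of stage, and that holds for the sign of their difference and not for its size. In 118 members the difference at 3.0 mm was at least 2 times that at 1.5 mm, and in 31 it was smaller.

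**Figure D2:**
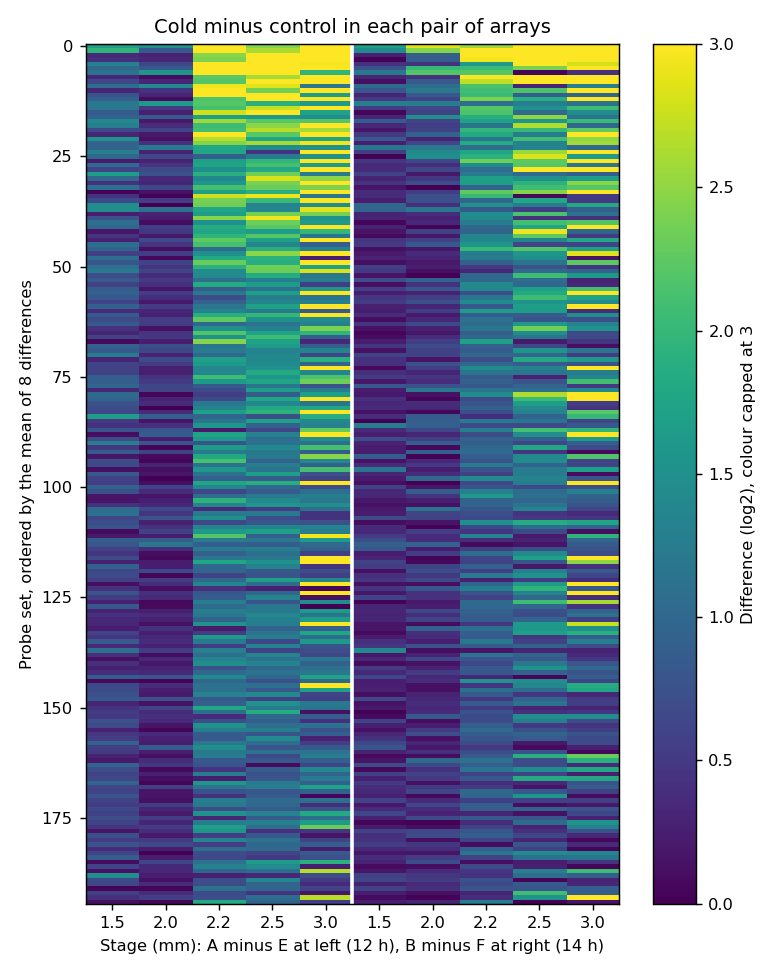
Difference (log2) between cold and control in each pair of arrays, for the 195 members as lines ordered from the largest mean of 8 differences at the top to the smallest. The left 5 columns are A minus E (12 h) and the right 5 are B minus F (14 h), with stages in mm, and colours are capped at 3. Columns of 1.5 and 2.0 mm are darker than those of later stages, with medians of 0.50 and 0.41 over both pairs against 1.12 to 1.25.

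The 2 photoperiods did not give the same size of difference. At 1.5 mm the median was 0.65 for A minus E and 0.32 for B minus F, and A minus E was the larger in 155 members. At 2.0 mm the order was turned, with 0.34 and 0.43, and A minus E was the larger in 71. At 2.2 mm the medians were 1.33 and 0.94, at 2.5 mm 1.33 and 1.15, and at 3.0 mm 1.35 and 0.95. With 1 array for each condition and stage, a difference between photoperiods at a single stage has no replicate.

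In 17 members all 10 cold arrays exceeded all 10 control arrays, whatever the stage. The number was 26 without the 12 h control array of 2.0 mm. Leaving out an array cannot undo such separation in a probe set. Separation over all arrays held for 0.297% of all probe sets tested. The widest gap belonged to Ta.6665.1.S1_at, which carries no gene name in the annotation used here. Its values from 1.5 to 3.0 mm were 13.13, 12.94, 13.12, 12.98 and 12.86 in condition A, and 12.92, 12.87, 12.77, 12.64 and 12.67 in condition B. In the controls it had 11.92, 11.33, 10.92, 11.10 and 11.25 in condition E, and 11.63, 11.61, 11.69, 11.36 and 11.56 in condition F. The lowest cold array thus lay 0.71 above the highest control array, and the stage differences ran only from 1.25 to 1.64. A second probe set of the same transcript cluster, Ta.6665.1.S1_x_at, had a gap of 0.68 and stage differences of 1.07 to 1.43. Both had a difference of at least 1 at each stage as the mean of both pairs, and they are singled out here after their values were seen.

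**Figure D3:**
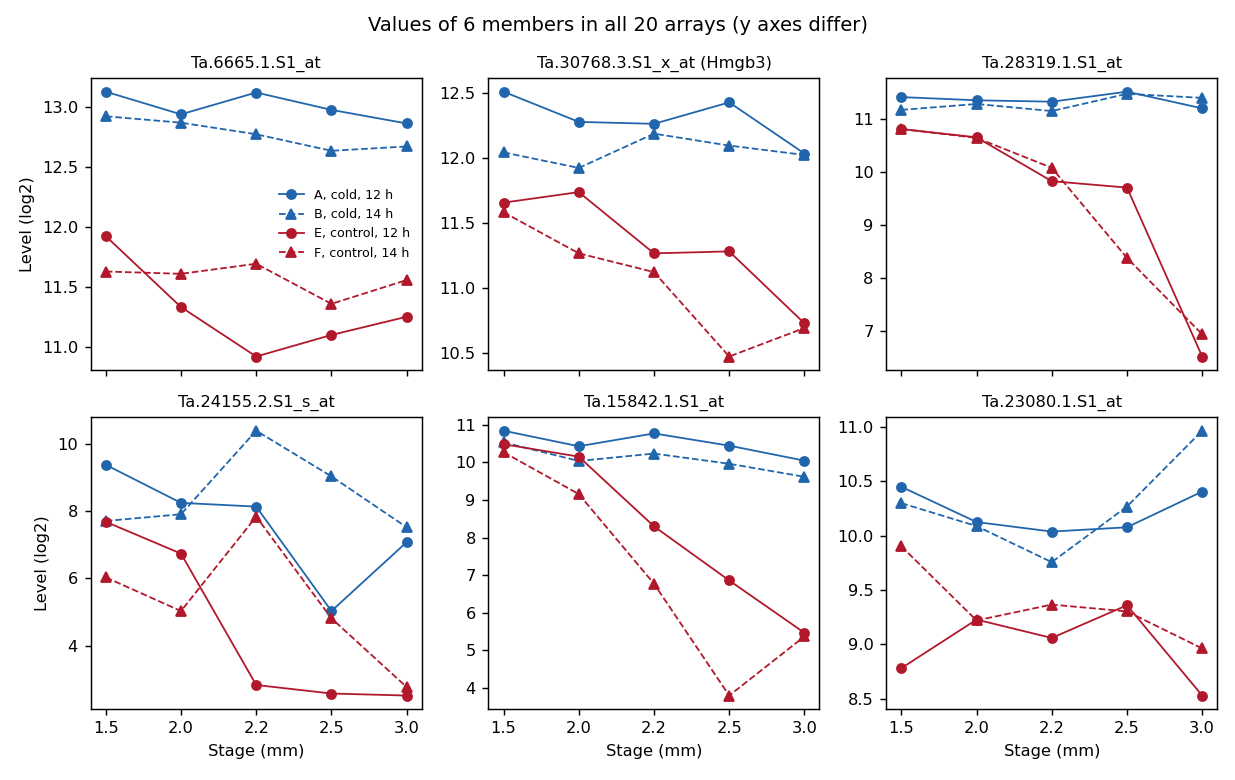
Values (log2) of 6 members in all 20 arrays against stage in mm, with cold in blue, control in red, 12 h of light as circles and 14 h as triangles, 1 array per point and a separate y axis in each panel. For Ta.6665.1.S1_at, Hmgb3 and Ta.28319.1.S1_at every cold point lies above every control point. For Ta.24155.2.S1_s_at, Ta.15842.1.S1_at and Ta.23080.1.S1_at the 2 sets overlap across stages.

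Of the members with a gene name, both probe sets of Hmgb3 were in this separated group. Hmgb3 encodes a high mobility group B protein, a member of a family of small chromatin proteins that bend DNA. Ta.30768.3.S1_x_at, annotated to this gene on chromosome 7A, had 12.51, 12.28, 12.26, 12.43 and 12.04 in condition A and 12.05, 11.93, 12.19, 12.10 and 12.03 in condition B, from 1.5 to 3.0 mm. It had 11.66, 11.74, 11.27, 11.28 and 10.73 in condition E and 11.58, 11.27, 11.12, 10.48 and 10.69 in condition F. Every cold array exceeded every control array, by a gap of 0.19 at the least. The brighter Ta.30768.1.S1_x_at, of the same gene, ranged from 13.51 to 14.07 in the cold and from 12.13 to 13.50 in the control, with a gap of 0.01. The third member of that cluster, Ta.30768.2.S1_x_at, is not annotated and ranged from 11.06 to 11.56 in the cold and from 9.34 to 10.87 in the control. The Hmgb3 difference was larger at the later stages, though smallest at 2.0 mm. For Ta.30768.1.S1_x_at it was 0.45 at 1.5 mm, 0.31 at 2.0 mm and 1.53 at 3.0 mm. For Ta.30768.3.S1_x_at it was 0.66 at 1.5 mm, 0.60 at 2.0 mm, 1.38 at 2.5 mm and 1.32 at 3.0 mm. The photoperiod difference of this probe set, 14 h minus 12 h, was -0.28 ± 0.08 (SE), with an adjusted p of 0.11.

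Hmgb3 moved in the same direction as the named histone probe sets that were tested. Of 18 probe sets named for H2A or H2B histones, which package newly copied DNA, 17 were tested. Over stages 1.5 to 2.5, 13 were called higher in the cold, against 16.7% of all probe sets tested. The median was 0.51 against 0.02 for all probe sets tested. Many of these histone probe sets share a transcript cluster, so 13 is not a count of genes. Their median difference was 0.21 at 1.5 mm, 0.01 at 2.0 mm, 0.74 at 2.2 mm, 1.10 at 2.5 mm and 2.45 at 3.0 mm. The histone difference thus opened mainly from 2.2 mm on, as did that of most members. The summed histone level (log2 of the sum over 18 probe sets) ranged from 15.57 to 16.44 in the cold and from 13.02 to 16.38 in the control. No histone probe set named in the annotation was among the members, but this absence is no result for most of them. Most belong to the H2A or H2B clusters that the rule left out by identifier. Of the 9 probe sets left out in this way after reaching all limits on values, 1 carries a histone name. The summed raftin level ranged from 11.48 to 14.77 in the cold and from 12.28 to 15.58 in the control, and that of the green-tissue markers from 15.22 to 15.87 and from 15.44 to 16.16. LTP3, a lipid transfer protein gene used as a marker of late pollen, lay between 2.41 and 2.51 in all cold arrays, close to the floor, and reached 11.65 in a control array. The part of these markers in the members' difference was not tested.

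Ta.28319.1.S1_at showed the widest opening among the separated members. Its cold values stayed between 11.15 and 11.52 in all 10 arrays. The control values went from 10.81 in both arrays at 1.5 mm to 6.53 and 6.95 at 3.0 mm, and the difference grew from 0.48 to 4.56. TaAffx.122592.1.S1_at was separated by 0.31 with differences between 0.62 and 1.07 at the 5 stages. The other members of the separated group had gaps from 0.01 to 0.19. Of the 195 members, 178 had at least 1 control array at or above the lowest cold array.

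**Figure D4:**
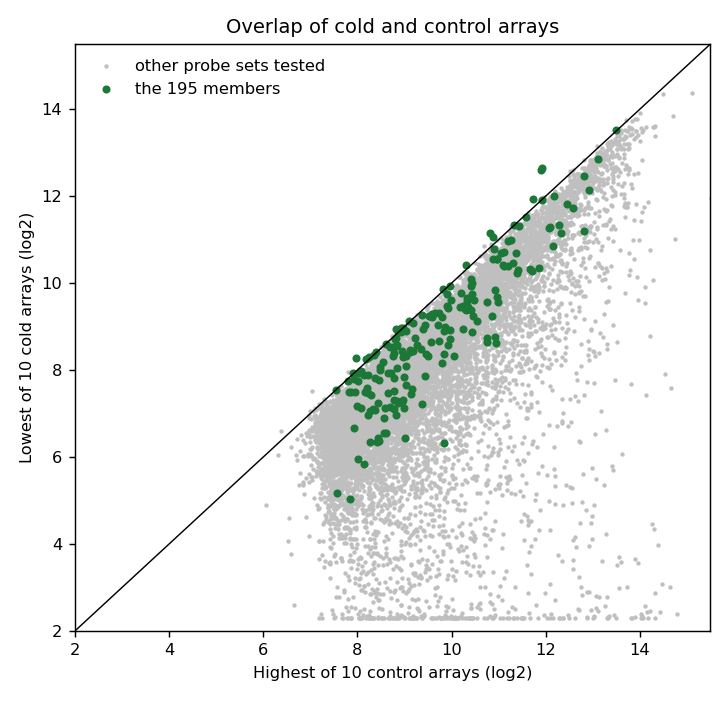
Lowest of the 10 cold arrays against the highest of the 10 control arrays (both log2) for the 195 members (green) and all other probe sets tested (grey), with the line of equality. Points above the line have no overlap between cold and control, which holds for 17 members.

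The 10 largest mean differences ranged from 1.61 to 2.78. Ta.24155.2.S1_s_at had the largest mean of the 8 differences, 2.78. It read 9.37, 8.24, 8.13, 5.04 and 7.08 in condition A and 7.71, 7.90, 10.38, 9.03 and 7.52 in condition B, from 1.5 to 3.0 mm. Condition E gave 7.68, 6.74, 2.84, 2.59 and 2.53, and condition F gave 6.03, 5.03, 7.83, 4.82 and 2.78. The 2 controls were far apart at 2.2 mm, and the cold and control values overlapped widely across stages. Ta.24155.2.S1_x_at followed it, with a mean of 2.60. These 2 probe sets count as 1 transcript cluster, and neither the stage nor the photoperiod contrasts called them.

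Ta.15842.1.S1_at had a mean difference of 2.18 and a simple course. In the cold it lay between 9.61 and 10.84 in all 10 arrays. In condition E it read 10.48, 10.15, 8.30, 6.86 and 5.47, and in condition F 10.27, 9.15, 6.77, 3.80 and 5.37. The differences were 0.36 (A minus E) and 0.26 (B minus F) at 1.5 mm, and 4.57 and 4.24 at 3.0 mm. Ta.204.1.S1_at, annotated to LOC542836 on chromosome 7A, had a like course at a higher level, with cold arrays from 11.19 to 13.00 and control arrays from 12.80 down to 5.15. Its mean difference was 2.15. TaAffx.16307.1.S1_at, with a mean of 1.96, stayed between 9.03 and 10.51 in the cold and reached 4.21 and 3.83 in conditions E and F at 3.0 mm.

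The remaining probe sets among the 10 largest were Ta.8073.1.S1_at, both probe sets of cluster Ta.27719, Ta.14899.1.S1_s_at and Ta.7729.1.S1_at, with means between 1.61 and 1.96. Ta.27719.2.S1_x_at differed between photoperiods in its course. Its values in condition A stayed at 8.76 or more, while in condition B they were down to 7.24 at 2.5 mm and 7.22 at 3.0 mm, against 7.19 and 6.80 in condition F. Its B minus F difference at 2.5 mm was thus close to 0.

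At the other end of the rule, the members just inside the threshold of 0.6 were TaAffx.105619.1.S1_at, Ta.27101.3.S1_x_at and TaAffx.97567.1.S1_at, each with a mean of 0.60. The probe sets just outside were Ta.7995.1.A1_at with 0.597, Ta.5089.1.A1_at with 0.595 and Ta.1997.1.S1_at with 0.594. These 6 values lie close together. The median of the mean difference over all members was 0.80, and 49 members reached 1 and 4 reached 2.

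As the mean of both pairs, the difference was at least 0.6 at each of the 5 stages in 17 members. In 6 it was at least 1 at each. Of these, only Ta.24155.2.S1_s_at and Ta.6665.1.S1_at reached 1 in both single pairs at each stage. B minus F of Ta.27719.2.S1_x_at was 0.06 at 2.5 mm. The 6 belonged to 3 transcript clusters, Ta.24155, Ta.6665 and Ta.27719. Both conditions, separation of all arrays and at least 0.6 at each stage, were met by 4 members, namely the 2 of Ta.6665, TaAffx.122592.1.S1_at and Ta.21335.1.S1_at.

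The 195 members stood for 164 transcript clusters of the array, as read from the first number of the identifier. In 28 clusters there were at least 2 members, 59 members in all. Across the 20 arrays, members of a cluster had a lowest pairwise Pearson correlation with a median of 0.97 and a minimum of 0.71, as a description, and such probe sets can measure the same RNA. The name of 31 members ends in _x_at and of 18 in _s_at, endings the maker gives to probe sets whose probes can match several transcripts. Wheat carries 3 related genomes, A, B and D, and such probe sets cannot separate the copies of a gene on them.

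Few members can be named. The annotation gave a symbol for 845 probe sets, of which 7 members carry 6 gene identifiers, and only Hmgb3 among them has a name that says what it encodes. Ta.14281.1.S1_at (LOC542796, chromosome 1A) had cold arrays from 8.66 to 10.18 and control arrays from 6.65 to 9.73, with a mean difference of 1.35. Ta.812.2.A1_x_at (LOC100049037, chromosome 5B), TaAffx.77390.1.S1_at (LOC543173, chromosome 6A) and Ta.7352.2.A1_a_at (LOC780584, chromosome 7B) had means of 0.76, 0.72 and 0.69.

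A further 10 members were joined to a wheat gene through the study's table of genes paired with microRNAs, by array differences equal to every printed decimal. That table lists genes the study found changed on these same arrays, so being in it is no independent evidence. Ta.23080.1.S1_at was joined to TraesCS5A02G426100, which the study's gene ontology tables place under photoperiodism and flowering. It read 10.45, 10.12, 10.04, 10.08 and 10.40 in condition A and 10.30, 10.09, 9.76, 10.27 and 10.96 in condition B. It read 8.78, 9.23, 9.06, 9.36 and 8.53 in condition E and 9.90, 9.22, 9.37, 9.30 and 8.96 in condition F. Its stage differences were between 0.68 and 1.03 up to 2.5 mm and 1.94 at 3.0 mm, and only the array of condition F at 1.5 mm overlapped the cold arrays. Its 14 h minus 12 h difference was 0.21 ± 0.12 (SE), with an adjusted p of 0.37.

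Ta.4945.1.S1_at was joined to TraesCS4B02G162000, listed under DNA repair and reproductive structure development. It had cold arrays from 7.87 to 8.81 and control arrays from 7.09 to 8.14. Ta.25584.1.S1_at, joined to TraesCS6B02G410800 and listed under DNA metabolic process, had a mean difference of 1.21. In condition A it went from 11.24 at 1.5 mm to 9.47 at 3.0 mm and in condition E from 9.57 to 8.24. Ta.14899.1.S1_s_at, joined to TraesCS2B02G366600 and listed under peptidyl-tyrosine phosphorylation, had a mean of 1.66 and read 2.92 and 2.91 in conditions E and F at 3.0 mm. The other joined members, without such terms here, were Ta.27719.2.S1_x_at, TaAffx.43978.1.A1_at, Ta.1675.1.S1_a_at, Ta.14297.1.A1_at, Ta.19423.1.S1_a_at and TaAffx.84188.1.S1_at, with means from 0.73 to 1.89.

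In plants, microRNAs guide the cutting or silencing of messages that pair with them along nearly their whole length. For 3 of these members the study's microRNA table gives the sequence of the microRNA paired with the gene, shown here because these are the only sequences tied to members. Bases 2 to 8, the seed, are in capitals to help compare the sequences, and letters are DNA bases as in that table.
miR6224a-3p (TraesCS2B02G366600): cTTATATTtaggaacggaggg
miR5287b-3p (TraesCS4B02G162000): tTAATATGgatcggagggagt
miR159a (TraesCS4D02G196300): tTTGGATTgaagggagtt
The 3 differ in these bases. The levels of these microRNAs were not analysed here. The probe set of TraesCS4D02G196300, TaAffx.84188.1.S1_at, had 8.96 and 8.87 in conditions A and B at 1.5 mm and 8.19 and 7.21 at 3.0 mm, and in conditions E and F it went from 8.70 and 8.28 to 4.26 and 4.74.

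Whether members also depended on stage was tested with the stage means averaged over cold and control, a contrast that the rule did not use. It rests on the same arrays, though. A low control value at 2.5 mm both raises a member's difference in the rule and lowers its averaged stage mean. The shares below are thus not independent of how the members were chosen. All 195 members passed the filter on dim probe sets. From 1.5 to 2.5 mm, 143 of them fell, 73.3%, against 19.3% of all probe sets tested, and 1 rose, against 14.8% (limma, Benjamini-Hochberg adjusted p under 0.05 over 13805 probe sets). The median change was -0.80 for members and -0.07 for all probe sets tested. The largest falls were those of Ta.204.1.S1_at, -3.43 ± 0.47 (SE, adjusted p = 0.000321), TaAffx.36718.1.A1_at, -3.07 ± 0.40, and Ta.15842.1.S1_at, -2.76 ± 0.39. TaAffx.36718.1.A1_at fell in both temperatures, from 9.96 to 8.77 in condition A, from 10.19 to 6.32 in B, from 9.52 to 5.85 in E and from 9.84 to 6.26 in F. The single riser was Ta.28484.1.S1_s_at, with 0.57 ± 0.14 (adjusted p = 0.00761). Over this span it changed by 1.03 in A and 1.25 in B, but by 0.16 in E and -0.17 in F. The 2 temperatures contributed unequally, since the median change from 1.5 to 2.5 mm was -0.52 in the cold and -1.22 in the control. With at least 2-fold required as well, 80 members fell and none rose, and leaving out single arrays gave 114 to 144 members that fell.

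From 2.5 to 3.0 mm, 44 members fell, 22.6%, against 10.4% of all probe sets tested, and 1 rose, against 7.27%. The median change was -0.31 for members and -0.04 for all. The largest falls were those of TaAffx.96878.2.S1_x_at, -2.28 ± 0.22 (adjusted p = 1.30e-05), Ta.22962.1.S1_at, -2.10 ± 0.20, and Ta.6374.3.S1_a_at, -2.04 ± 0.19. They came mostly from the control. TaAffx.96878.2.S1_x_at went from 7.63 to 2.58 in condition E and from 6.57 to 3.22 in F, but from 8.66 to 8.14 in A and from 8.22 to 8.05 in B. The riser was Ta.28698.1.S1_at, with 0.51 ± 0.15 (adjusted p = 0.0357), and here too only the control moved, by 0.82 in E and 1.37 in F against -0.01 in A and -0.13 in B. That call was lost under 6 alternatives, with adjusted p between 0.0506 and 0.127, namely without the filter, without either control array of 3.0 mm, without the 12 h cold array or the 14 h control array of 2.5 mm, and without the 14 h cold array of 3.0 mm. With at least 2-fold required as well, 27 members fell.

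Photoperiod, 14 h against 12 h averaged over both temperatures and all stages, also did not enter the rule. No member was called higher or lower in limma, and over all probe sets tested the background was small, 0.217% higher and 0.116% lower. The members did lean one way. The 14 h mean was below the 12 h mean in 170 of 195 members, and in 7950 of all 13805 probe sets tested, and the median was -0.21 for members against -0.04. At an unadjusted p under 0.05, 65 members were lower in 14 h and 1 was higher, compared with 1611 and 1044 of all tested. The smallest adjusted p among members was 0.0526, for Ta.19423.1.S1_a_at, with a difference of -0.51 ± 0.10 (SE). The largest differences were 1.06 ± 0.60 for Ta.24155.2.S1_x_at and -0.85 ± 0.26 for Ta.14899.1.S1_s_at, with adjusted p of 0.35 and 0.13. Within the cold the median of B minus A was -0.30 for members and -0.05 for all probe sets tested. Within the control the median of F minus E was -0.07 for members and -0.00042 for all. By stage, the members' median of B minus A lay between -0.13 at 1.5 mm and -0.60 at 2.5 mm. Their median of F minus E was 0.14 at 1.5 mm and 0.08 at 2.2 mm, and below 0 at the other stages. Over all probe sets tested, the arrays of condition B at 2.5 and 3.0 mm had the lowest medians, 8.27 and 8.23. The number of members lower in 14 h was 9 without either of the control arrays of 1.5 mm, 3 without either of the control arrays of 2.2 mm and 2 without either of the cold arrays of 2.2 mm. Quantile normalization gave 1, and the other alternatives gave 0.

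**Figure D5:**
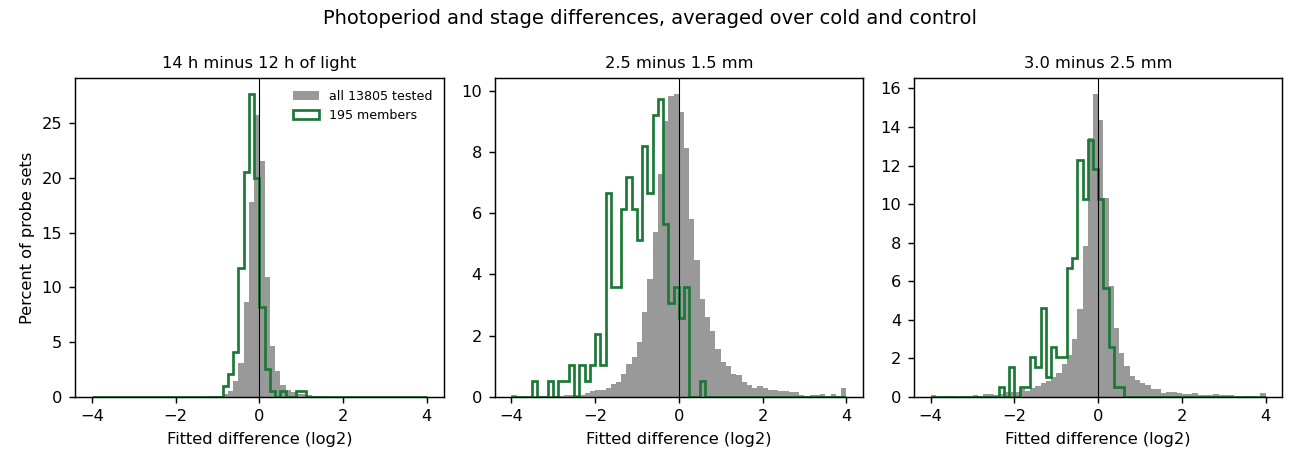
Percent of probe sets by fitted difference (log2, values beyond 4 placed at 4) for the 195 members (green line) and all 13805 probe sets tested (grey), for photoperiod, 2.5 minus 1.5 mm and 3.0 minus 2.5 mm, each averaged over cold and control. The members lie to the left, with medians of -0.21, -0.80 and -0.31 against -0.04, -0.07 and -0.04.

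Not all members declined as anthers grew. From 1.5 to 3.0 mm, both means stayed within 0.5 of their start in 22 members, and both ended at least 1 lower in 71. Both ended higher in 3, Ta.28484.1.S1_s_at, Ta.10308.3.S1_a_at and Ta.6344.1.S1_at, which were picked out after their values were seen. Ta.28484.1.S1_s_at had 7.47 and 7.68 in the cold at 1.5 mm and 8.81 and 8.61 at 3.0 mm, and its control values went from 7.11 and 7.44 to 7.97 and 8.22. In 67 members the cold mean at 3.0 mm was still above the control mean at 1.5 mm, and in 96 it was above the control mean at 2.0 mm. The control mean at 3.0 mm was under 6 in 33 members and the cold mean in none.

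Named gene lists added little. The cold and dehydration list matched 1 probe set, of Rab15, a gene of a family that responds to abscisic acid and drying. It stayed at or near the floor, at 3.40 or less in every array, and was not tested. None of the lists held a member, which for most of the histone list was set by the rule, since it left out their clusters by identifier. The remaining lists are given as cold against control over stages 1.5 to 2.5, with the median difference at 3.0 mm beside them. Over all probe sets tested, 16.7% were called higher in the cold and 16.3% lower. Of 9 tubulin probe sets tested, 4 were higher in the cold and none lower, with a median of 0.32, against -0.27 at 3.0 mm. Of 6 of translation, 1 was higher and 1 lower, with a median of 0.09, against 0.23 at 3.0 mm. The lower one, of CL9, had a difference of 4.24 at 3.0 mm. Of 7 of redox enzymes, 6 were lower and none higher, with a median of -1.12, against 0.43 at 3.0 mm. The chaperone list held 1 probe set, of FKBP70, and the list of transcription factors none. The FKBP70 probe set was higher in the cold by 0.43 (limma, adjusted p = 0.042), against 0.66 at 3.0 mm.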

How the data were processed

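The authors deposited 1 table of log2 expression values for 20 Affymetrix arrays. The labels name MAS5, and its version, settings and scaling between arrays were not given in the sources used here. A lowest value shared by all arrays and the many values equal between arrays are unusual for MAS5, so how the probes were summarised was not settled. Of 28895 entries, 1 reporter control was left out. Of the members, 2 had values equal in 3 or more arrays, as had 12103 of all probe sets. The number of arrays limits the precision. The members, gene lists and tests were chosen with earlier results of these data known.

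A probe set was tested when it lay above the 60th percentile in both arrays of a temperature and stage. limma 3.58.1 in R 4.3.3 fitted 1 mean per temperature and stage plus a photoperiod term, with 9 residual degrees of freedom, a variance trend and Benjamini-Hochberg adjustment over 13805 probe sets. The fit was tested on simulated data. The photoperiod and stage contrasts are averaged over temperatures and do not use the rule's differences. They come from the same arrays, so where cold and control change unequally the stage contrasts are not independent of the rule. Named are members with a gene symbol or a wheat gene joined by the study's tables, the 10 largest means, 3 on each side of the threshold, and per tested contrast the 3 called members with the largest change in each direction. Any other member named is marked or is part of a count. The pair table gave 329 of 357 genes a single probe set. Of 845 annotated probe sets, 844 matched the wheat reference gene table (IWGSC CS RefSeq v2.1) by gene ID and 115 had a name. Alternatives were other normalization, filter, variance and photoperiod settings and leaving out each array. The small RNA and degradome libraries of the study were not used here.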

Additional observations from a re-analysis of the deposited data

Results flagged for a closer look

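In Ta.23080.1.S1_at both cold conditions were higher at 3.0 than at 2.5 mm and both controls lower, and the cold change exceeded the control change by 1.10 on the log2 scale. In Ta.28698.1.S1_at the cold hardly changed, by -0.01 in A and -0.13 in B, while the controls rose by 0.82 in E and 1.37 in F. The cold change minus the control change was -1.16. Neither difference was tested, since the rule used the differences between cold and control at both stages. Among the members named, these 2 stood out because the signs of change were opposite between the temperatures in both conditions. In Ta.28698.1.S1_at the cold signs rest on changes close to 0. Groups of 2 arrays are too small for a check of single outlying samples.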

How the results depend on the processing

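The number of members was 222 after quantile normalization, 186 of them shared, and 169 to 293 when single arrays were left out, with the highest number without control 1.5 replicate 2 (replicate 1 is 12 h and replicate 2 is 14 h of light). The number of members whose cold arrays all exceeded all control arrays, with alternatives chosen after seeing the data, was 21 after quantile normalization, 22 without the 4 arrays of 3.0 mm and 17 to 26 without single arrays. Without control 2.0 replicate 1 it was 26. For a given probe set, leaving out arrays can only keep or add separation. For 2.5 against 1.5 mm, members that rose stayed at 1 without single arrays and members that fell numbered 114 to 144. With at least 2-fold as well they were 0 and 80. For 3.0 against 2.5 mm, 0 to 2 rose and 30 to 59 fell without single arrays, and with at least 2-fold 0 rose and 27 fell. Those that rose numbered 3 after quantile normalization, 2 without the variance trend and 0 without the filter. For 14 h against 12 h of light, 0 members were higher in every alternative, and 0 to 9 were lower without single arrays and 1 after quantile normalization. The cause of these changes was not tested. In the count of members, leaving out an array removed the difference of its pair, so fewer differences had to be above 0. Replicate numbers in the samples mark the photoperiod, so the photoperiod term is the block. Without this block 1 member rose and 137 fell from 1.5 to 2.5 mm, and 1 rose and 37 fell from 2.5 to 3.0 mm. Of the 8 members named for a stage change, none changed direction under the alternatives run. Ta.28698.1.S1_at lost its call under 6 of 25 fits, and neither it nor Ta.28484.1.S1_s_at reached 2-fold. The mean differences of the named members were recomputed under quantile normalization alone, where all stayed above 0 and Ta.27101.3.S1_x_at, at 0.56, came below the threshold of 0.6. The cold-response list had no probe set past the filter and so has no alternative.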
